A study of Rattus norvegicus with 4 samples.

Results

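The genes described here are alpha-defensins, a lysozyme and a secretory phospholipase A2. Paneth cells of the small intestine are known to release members of these families. Members were the gene probes of the array whose gene name was Defcr4, Defa24, RatNP-3b, Np4, Lyz, Lyz2 or Pla2g2a, ignoring case. Of these 7 names, 5 were matched, each by 1 probe, giving 5 probes of the 41012 gene probes on the array, which carry 35658 distinct gene names. The names Defa24 and Lyz2 had no probe of their own, since they are the current symbols of Defcr4 and Lyz, so that the 7 names stand for 5 genes. The test covered the 28415 probes whose signal cleared background in 2 or more rats; all 5 were among them, and each was well above background on all 4 arrays.

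RNA came from the small intestine, without Peyer's patches, of individual male Wistar rats that were 3 weeks old at the start. The 2 control rats drank tap water for 12 weeks, and the 2 compost rats drank tap water holding 1% (v/v) compost extract over the same 12 weeks. The extract was compost diluted 100-fold in potable water and kept aerobically for 10 h or longer at 60 °C. Each rat had 1 Cy3-labelled array, and all 4 arrays lay on 1 slide with the control rats at the first positions, so that position on the slide and group cannot be told apart. The labels do not say which stretch of the small intestine was sampled.

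Paneth cells sit at the base of the small intestinal crypts, beside the stem cells, and store antimicrobial proteins in granules that are emptied into the crypt lumen on bacterial or cholinergic signals. Alpha-defensins are short cationic peptides held together by disulfide bonds that permeabilise bacterial membranes. Lysozyme cuts the peptidoglycan of the bacterial wall, and the group IIA secretory phospholipase A2 hydrolyses the phospholipids of bacterial membranes.

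The alpha-defensin genes neighbour each other in the rat genome. In the RefSeq table for GRCr8, 11 alpha-defensin genes followed each other in 1 run with no other protein-coding gene starting among them, in the order Defa5, Defa24, Defal1, Defa6, Defa7, Defa8, Defa9, Np4, Defa10, Defa11 and RatNP-3b. Of these, 9 were annotated as protein coding. Lyz2 and its neighbour Lyc2, a second lysozyme gene, had 0 protein-coding genes between them. Np4 and RatNP-3b carry names taken from the neutrophil peptides of the rat, and Defcr4 that of the mouse cryptdins. Which cells made the transcripts of each gene was not tested.

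RefSeq promoters were at hand for 4 of the 5 genes, with no entry for Defa24. For Np4 and Lyz2 the start used was that of a single transcript, and the gene record reached further upstream. The levels of RatNP-3b and Np4 followed each other most closely of the member pairs, but both spanned under 1 log2 unit, and nothing is drawn from this. The 250 bases before the annotated start are printed for these 2 defensins, and for the lysozyme and the phospholipase set against them. Each runs 5′ to 3′ on the gene's own strand in build GRCr8, and capitals mark TTAAATA or its reverse complement TATTTAA. The intervals are chr16:77248978-77249227, minus strand, for RatNP-3b; chr16:77199643-77199892, minus strand, for Np4; chr7:54798012-54798261, minus strand, for Lyz2; and chr5:156359475-156359724, plus strand, for Pla2g2a.
RatNP-3b: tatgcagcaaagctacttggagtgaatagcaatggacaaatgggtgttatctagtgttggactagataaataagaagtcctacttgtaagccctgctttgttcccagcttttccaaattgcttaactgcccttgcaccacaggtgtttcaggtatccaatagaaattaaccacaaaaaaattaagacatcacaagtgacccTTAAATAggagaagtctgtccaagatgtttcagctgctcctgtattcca
Np4: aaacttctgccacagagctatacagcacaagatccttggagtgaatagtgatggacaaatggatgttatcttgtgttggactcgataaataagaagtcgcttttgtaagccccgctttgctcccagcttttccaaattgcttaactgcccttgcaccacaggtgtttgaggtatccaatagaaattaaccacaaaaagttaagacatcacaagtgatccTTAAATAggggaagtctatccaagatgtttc
Lyz2: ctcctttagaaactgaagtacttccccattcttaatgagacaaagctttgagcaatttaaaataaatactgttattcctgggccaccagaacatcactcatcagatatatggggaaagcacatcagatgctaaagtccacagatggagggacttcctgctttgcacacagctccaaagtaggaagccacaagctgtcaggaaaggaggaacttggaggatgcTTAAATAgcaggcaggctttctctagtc
Pla2g2a: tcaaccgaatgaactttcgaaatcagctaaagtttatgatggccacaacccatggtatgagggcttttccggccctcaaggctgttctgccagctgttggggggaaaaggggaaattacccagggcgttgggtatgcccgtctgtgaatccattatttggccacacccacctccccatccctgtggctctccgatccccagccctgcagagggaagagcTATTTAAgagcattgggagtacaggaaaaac

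The RatNP-3b and Np4 promoters were identical at 212 of 269 alignment columns (78.8%). The other 5 pairs among the 4 promoters ranged from 43.8% to 48.7%, and each of those pairs joins genes of different families. Alpha-defensin promoters were not all alike: RatNP-3b and its neighbour Defa11 were identical at 89.0% of columns, but Defa9 shared 44.7% with RatNP-3b, 41.9% with Np4 and 45.6% with Defa11. TTAAATA began 49 bases before the start of RatNP-3b, 31 bases before that of Np4 and 28 bases before that of Lyz2. In Pla2g2a it was found on the opposite strand, 31 bases before the start. The motif was picked after these sequences had been read, and on either strand it was present in 1392 of 33469 rat promoters of the same length (4.16%). The sequences CTTTGA and CTTTGT, the forms in which the Wnt effector TCF binds DNA, were searched on both strands. RatNP-3b held 1 match and Lyz2 held 2, none overlapping TTAAATA, Np4 and Pla2g2a held none, and 27.54% of the 33469 promoters held at least 1.

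Genes of the small intestinal epithelium and of Paneth cells were detected on the arrays. All 12 measured genes of the small intestinal epithelium list were well above background on all 4 arrays. Mmp7, the protease that activates alpha-defensin precursors in mouse Paneth cells, was well above background in every rat. So were Sox9, a transcription factor that Paneth cells need, at levels from -4.38 to -4.11, and Defa6. Of 16 other Paneth granule and secreted genes on the array, 12 were well above background on all 4 arrays. Of 19 genes of Paneth cell fate and secretion, 18 were. Defa5, Mptx1 and Tnf were well above background on 1 array only. Of the markers of neutrophils, another known source of alpha-defensins and lysozyme, 9 of 18 measured were never well above background on any array. Mpo, Elane and Ctsg, which encode the main enzymes of neutrophil granules, were among these 9, as were Csf3r, Ltf and Mmp8. Another 7 of the 18 were well above background on all 4 arrays: Prtn3, the granule enzyme proteinase 3, at levels from -4.03 to -3.48, and Camp, Padi4, Mmp9, S100a9, Lcn2 and Itgam. The part of neutrophils in the members' levels was not tested. In bulk tissue, fewer Paneth cells and less RNA per Paneth cell cannot be told apart.

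Levels are given as the log2 intensity of a probe minus the 75th percentile of its array, so that a level of 8 is that many doublings above that percentile. Levels of different probes are not set against each other. Where a summed linear level of a list is given, it follows the brightest probes and does not stand for the list as a whole. These were Apoa4 and Fabp1 for the proximal list, Fabp6 for the distal, Laptm5 and Ctss for macrophages and Reg3b for other granule genes. The 75th percentile lay at an intensity of 769 and 760 in control rats 1 and 2 and at 987 and 729 in compost rats 1 and 2. On each array 66.5% to 71.0% of gene spots cleared background, and arrays correlated with each other at r = 0.981 to 0.988 across probes. None of the 20 member spots was saturated or an outlier, and the brightest reached 69.5% of the scanner's saturation value. The arrays' repeated spots had a median coefficient of variation of 4.28% to 5.11%, and the scanning software gave each member spot an error of 10.0%. Precision was limited by the number of arrays, 2 in each group.

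Control rat 1 stood apart from the other 3 rats in some genes that differ along the small intestine. Of the 12 tested genes of the proximal list, 8 were highest in control rat 1 and 2 were lowest there, the hormone genes Sct, at 5.85 against 6.13, 6.30 and 6.67, and Cck, at 0.35 against 0.56, 0.42 and 0.63. The genes named in this paragraph were picked after their values had been seen. Gata4, the transcription factor of the duodenum and jejunum, was at -0.74 in control rat 1, where it was well above background, and at -7.62, -7.83 and -6.49 in control rat 2, compost rat 1 and compost rat 2, where it was not. Slc46a1, the proton-coupled folate transporter of the proximal intestine, was at -0.66 in control rat 1 and at -3.57, -3.65 and -3.89 in the other rats; a second probe of it differed less, at -3.67 against -4.51, -4.83 and -4.91. The pentraxin Mptx1, of the list of other Paneth granule genes and not of a regional list, was at 2.18 in control rat 1 and not well above background in the others, at -7.01, -7.19 and -7.28. Slc2a2, the glucose transporter GLUT2, was at 0.95 and -2.13 in the control rats and at -3.01 and 0.05 in the compost rats. The difference of every member is therefore given with and without control rat 1; the part of these genes in the members' levels was not tested.

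None of the 5 member probes passed an adjusted p of 0.05 between compost and control rats in the limma fit, where 0 of 28415 probes did in either direction (0% higher and 0% lower). At an unadjusted p under 0.05 the members had 0 calls too, against 913 of all probes (3.21%). The probes of RatNP-3b, Np4 and Pla2g2a were higher and those of Defcr4 and Lyz lower in the compost mean. Of all probes tested, 46.2% were above 0, the share beside which direction counts of the lists below are read. The median of the 5 member differences was 0.14 on the log2 scale, beside a median of -0.02 over all probes. For all 5, the 2 control rats differed from each other by more than the group means did, and for 3 of 5 the 2 compost rats did as well. With 2 rats against 2, an exact two-sided permutation test cannot go below p = 0.333.

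**Figure D1:**
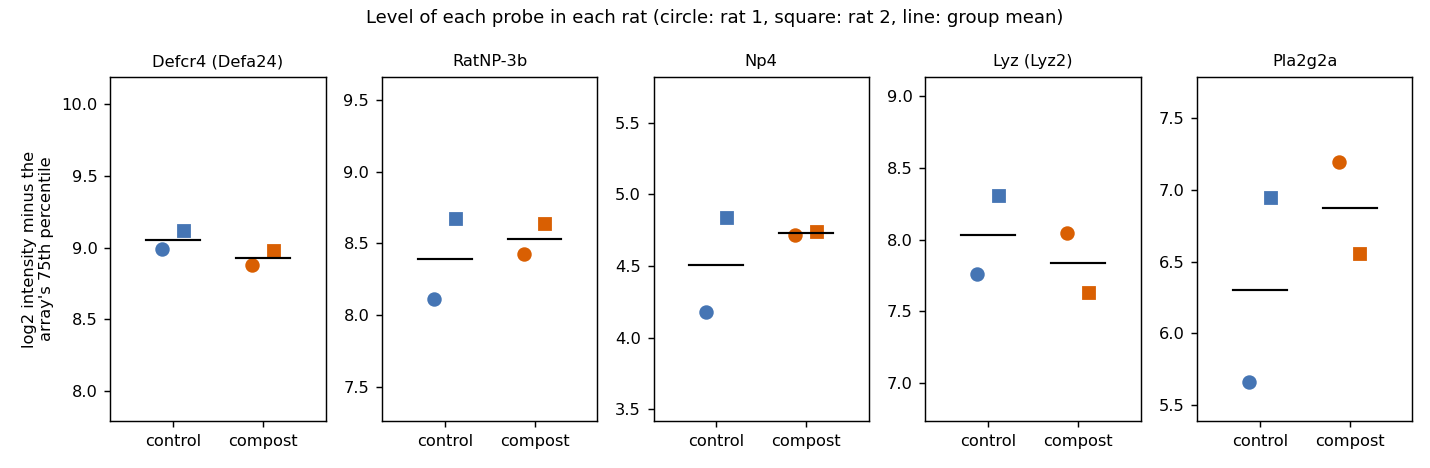
Level of each of the 5 probes in each rat, as log2 intensity minus the 75th percentile of the array (vertical axis; each panel spans the same 2.4 log2 units around its own mean, so panels start at different levels). Circles are rat 1 and squares rat 2 of each group, and lines are group means. Defcr4 lies within 0.24 log2 units over the 4 rats and Pla2g2a within 1.53, with control rat 1 lowest for RatNP-3b, Np4 and Pla2g2a.

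Among the defensins, Defcr4 was the steadiest. Its level was 8.99 and 9.11 in control rats 1 and 2 and 8.88 and 8.98 in compost rats 1 and 2. Both compost rats were thus below both control rats, but the whole spread over the 4 rats was 1.18-fold. The group means were 9.05 ± 0.09 in control and 8.93 ± 0.07 in compost (SD, n = 2 each), a log2 difference of -0.12 ± 0.18 (SE; 95% interval -0.60 to 0.35, or 0.661-fold to 1.27-fold; limma adjusted p = 1.00). It was -0.19 without control rat 1 and -0.06 without control rat 2. Defcr4 was the 1 member whose groups did not overlap. Across the array, both compost rats were below both control rats for 4393 probes (15.5%), and above them for 3522 (12.4%).

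RatNP-3b had a level of 8.11 in control rat 1, 8.67 in control rat 2, 8.43 in compost rat 1 and 8.64 in compost rat 2. Control rat 1 was the lowest and control rat 2 the highest, so the groups overlapped, and the controls stood 1.47-fold apart against 1.16-fold for the compost rats. The means of 8.39 ± 0.39 and 8.53 ± 0.15 (SD, n = 2 each) gave a log2 difference of 0.14 ± 0.26 (SE; 95% interval -0.54 to 0.82; limma adjusted p = 1.00). Without control rat 1 the difference was -0.14, and without control rat 2 it was 0.42.

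Np4 had a level of 4.18 in control rat 1, 4.84 in control rat 2, 4.72 in compost rat 1 and 4.74 in compost rat 2. Of the 20 member spots, 19 were flagged as taken from a scan at lower gain and scaled up. The exception was the Np4 spot of control rat 1. The part of this in the levels of Np4, and in its profile over the rats, was not tested. The compost rats lay 1.01-fold apart, inside the 1.57-fold between the controls. The means were 4.51 ± 0.46 and 4.73 ± 0.01 (SD, n = 2 each), and the log2 difference was 0.22 ± 0.28 (SE; 95% interval -0.50 to 0.94; limma adjusted p = 1.00). It was -0.11 without control rat 1 and 0.55 without control rat 2.

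RatNP-3b and Np4 had the most alike profiles of the 10 pairs of members. After each probe was centred on its own mean, their 4 values differed by a root mean square of 0.09 log2 units, against 0.21 for Defcr4 and RatNP-3b and 0.60 for Defcr4 and Pla2g2a, the pair least alike. RatNP-3b and Np4 spanned 0.55 and 0.66 log2 units over the rats, less than the 1 log2 unit set for likeness. Nothing is drawn from their closeness. Their genes are 3 places apart in the defensin run. The array files used here give no probe sequences, so whether a probe also binds transcripts of near-identical defensin genes was not tested, and the levels of single defensin genes are uncertain to that extent.

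A further alpha-defensin on the array, Defa6, had levels of 8.94 and 9.33 in the control rats and 8.99 and 9.13 in the compost rats. The groups overlapped and the log2 difference was -0.07 ± 0.22 (SE); it was 0.10 after quantile scaling and 0.12 without control rat 2. The probe of Defa5 was well above background on 1 of 4 arrays, with levels from -6.71 to -5.12, and was not tested. The probes for other alpha-defensins of the run were not found on the array under the names searched, and Defa6 was the 1 gene of the 13 names on that list to be tested.

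Lyz, whose current symbol is Lyz2, is also made by macrophages. Its level was 7.76 in control rat 1, 8.31 in control rat 2, 8.04 in compost rat 1 and 7.63 in compost rat 2. Control rat 2 was highest and compost rat 2 lowest, with one rat of each group between them. The means of 8.03 ± 0.39 and 7.83 ± 0.30 (SD, n = 2 each) gave a log2 difference of -0.20 ± 0.28 (SE; 95% interval -0.94 to 0.55; limma adjusted p = 1.00). Its sign depended on single rats: the difference was 0.074 without control rat 2, 0.011 without compost rat 2, -0.47 without control rat 1 and -0.41 without compost rat 1.

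Macrophage markers were measured beside Lyz. Of 15 tested, 0 passed the adjusted threshold and 0 had an unadjusted p under 0.05. In the compost mean 14 markers were higher, beside 46.2% of all probes, and 1 was lower. The median log2 difference of the markers was 0.53. Their summed level, on a linear scale relative to the 75th percentile, was 168 and 127 in the control rats and 201 and 173 in the compost rats, lowest in control rat 2, while the median level of the list was lowest in control rat 1 (1.00, 1.17, 1.36 and 1.36 in the same order). C1qb, a subunit of complement C1q, was at 4.45 and 4.04 in the control rats and 5.16 and 4.62 in the compost rats, a difference of 0.64 ± 0.28 (SE) that was 0.37 without compost rat 1. Cd68, a lysosomal glycoprotein, Csf1r, the receptor that macrophages need to survive, and Adgre1, the F4/80 antigen, differed by 0.53 ± 0.49, 0.65 ± 0.56 and 0.46 ± 0.53 (SE). Compost rat 1 was the highest for all 3 of them, and without it their differences were -0.12, -0.15 and -0.30 and the median of the list 0.12. The part of macrophages in the level of Lyz was not tested.

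Of 7 lysozyme and lysozyme-like genes beyond Lyz on the array, 5 were never well above background, Lyc2 among them. Spaca3, a sperm acrosome protein of the lysozyme family, was the 1 tested. Its level was -1.43 and 0.28 in the control rats and -0.16 and 0.13 in the compost rats, with a log2 difference of 0.57 ± 0.59 (SE) that was -0.29 without control rat 1.

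Pla2g2a varied most of the 5. Its level was 5.66 in control rat 1, 6.94 in control rat 2, 7.19 in compost rat 1 and 6.55 in compost rat 2. Control rat 1 was below the other 3 rats, among which both compost rats lay on either side of control rat 2. The controls stood 2.43-fold apart and the compost rats 1.56-fold. The means of 6.30 ± 0.90 and 6.87 ± 0.45 (SD, n = 2 each) gave a 1.49-fold higher mean in compost rats, a log2 difference of 0.57 ± 0.50 (SE; 95% interval -0.74 to 1.89, or 0.597-fold to 3.70-fold; limma adjusted p = 1.00). Without control rat 1 the difference was -0.068, and without control rat 2 it was 1.21.

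**Figure D2:**
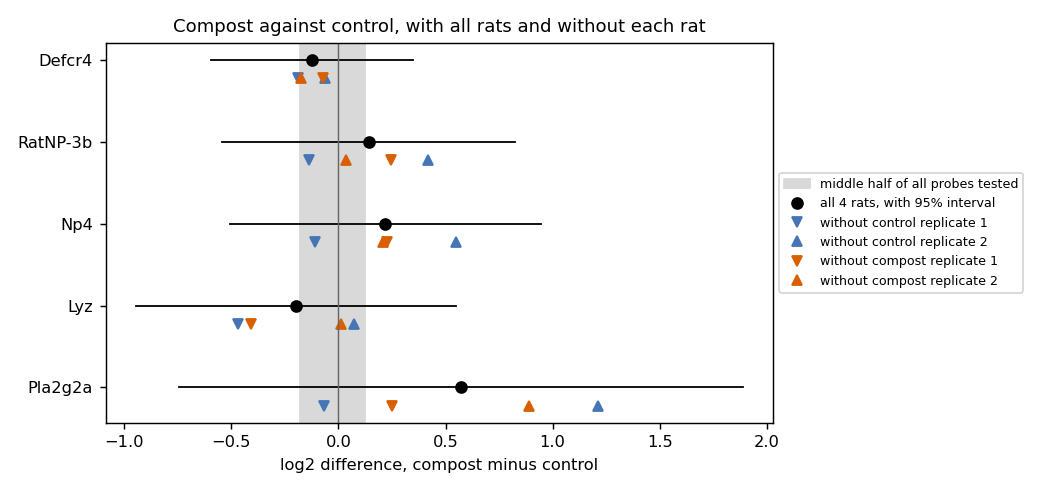
Log2 difference between compost and control rats for each probe (horizontal axis). Black points and lines are the difference over all 4 rats with its 95% interval, triangles are the differences when the rat named in the key is left out, and the grey band spans the 25th to 75th percentile of all probes tested. All 5 intervals cross 0, and all 5 differences are below 0 without control rat 1, while 4 of 5 are above 0 without control rat 2.

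All 5 differences were below 0 once control rat 1 was left out, from -0.47 for Lyz to -0.068 for Pla2g2a, where 43.2% of all probes were above 0. Without control rat 2, 4 of 5 were above 0, where 49.2% of all probes were. Each of these sets the compost rats against 1 control rat. Control rat 1 was the lowest of the 4 rats for 3 of 5 probes, and control rat 2 the highest for 4 of 5. Mmp7 had a profile like that of Pla2g2a: it was at 4.88 and 5.91 in the control rats and 6.07 and 5.63 in the compost rats, and its centred values lay 0.12 log2 units (root mean square) from those of Pla2g2a. Its log2 difference of 0.45 ± 0.41 (SE) was -0.061 without control rat 1. Among all probes with a symbol, the 3 nearest to Pla2g2a over the 4 arrays were Gpr149 at 0.07, Smpx at 0.07 and Iapp at 0.07, and 10 probes lay within 0.1. So few arrays give little to set one profile apart from another, and nothing is drawn from it.

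**Figure D3:**
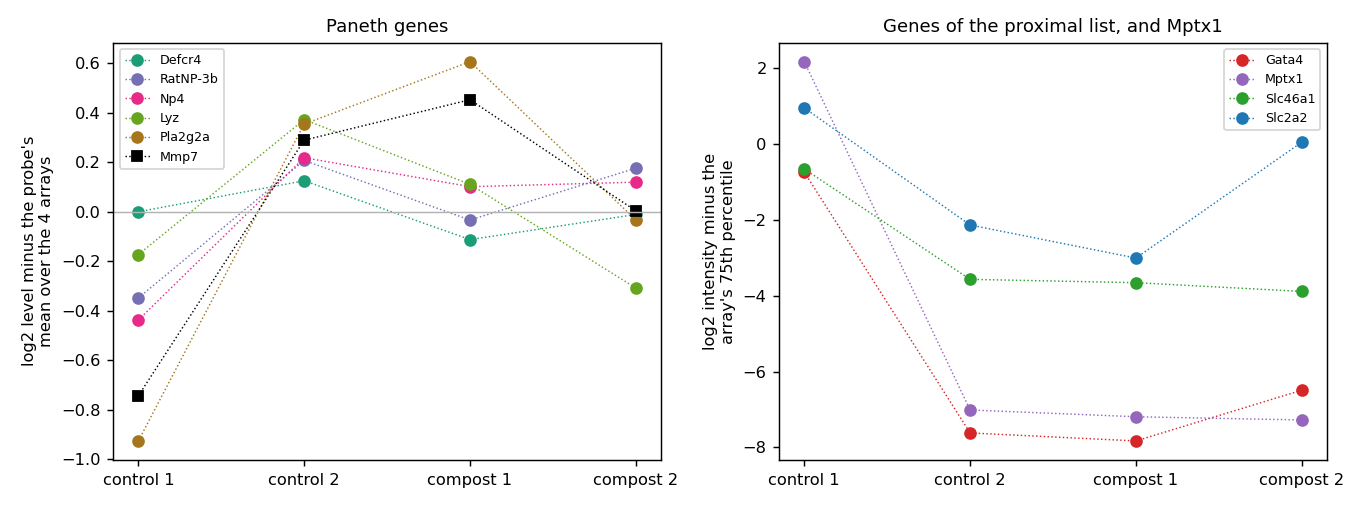
Left, level of each of the 5 probes and of Mmp7 in each rat after subtraction of the probe's own mean (log2 units). Right, level of 3 genes of the proximal list and of Mptx1 (log2 intensity minus the 75th percentile). Dotted lines only join the points of a probe; Mmp7 runs close to Pla2g2a, and Gata4, Mptx1 and Slc46a1 are highest in control rat 1.

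The rest of the phospholipase A2 family had a median near 0. Of 15 genes tested, 9 were higher and 6 lower in the compost mean with a median log2 difference of 0.04, and 0 were called at either threshold. In 2 genes both compost rats were above both controls and in 2 they were below, beside 12.4% and 15.5% of all probes. Pla2g2d and Pla2g5, further secretory phospholipases, had the smallest p-values, with differences of 1.65 ± 0.85 and 0.73 ± 0.39 (SE), but both were well above background in only 1 of the 2 control rats. With normexp the differences were 0.23 and 0.16, and without control rat 1 they were 0.41 and 0.19. A second probe of Pla2g5, well above background on 2 of 4 arrays, was lower in the compost mean. It was at -6.89 and -3.82 in the control rats and -5.57 and -5.75 in the compost rats.

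The list of other Paneth cell granule and secreted genes is wider than granule contents and also holds Cd24 and Slc30a2. The part of Paneth cells in its levels was not tested. Of its 14 genes tested, 10 were higher in the compost mean, beside 46.2% of all probes, and 4 were lower. The median log2 difference of these genes was 0.36. In 6 of them both compost rats were above both controls and in 0 below, beside 12.4% and 15.5% of all probes. None passed the adjusted threshold. Beside 3.21% of all probes, 1 had an unadjusted p under 0.05. This was Prss1, a trypsinogen, at -5.70 and -4.00 in the control rats and -2.77 in both compost rats, a difference of 2.08 ± 0.59 (SE); its signal in control rats cleared background in 1 of 2. The difference was 0.86 with normexp background correction and 1.23 without control rat 1. Il17a, a cytokine reported in Paneth cell granules, followed with 1.55 ± 0.72 (SE), or 0.46 with normexp and 0.72 without control rat 1, though it was well above background in 1 rat of each group. Itln1, the lectin intelectin, ran the other way in control rat 1, at 6.94 against 4.80, 5.05 and 4.88 in the other rats. Its difference of -0.90 ± 0.73 (SE) was 0.17 without that rat.

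The summed linear level of these 14 genes was 590 in control rat 1 and 988, 1041 and 1111 in control rat 2 and the 2 compost rats. Control rat 1 was the lowest rat for 8 of the 14 and the highest for 1, Itln1; Mptx1 of this list, which was not tested, was also highest there, as given above. The 3 genes that follow are among these 8 and were picked after their values were seen. Reg3g, a C-type lectin that binds peptidoglycan, was at 5.14 there and at 7.87, 8.11 and 8.09 in the others. Its relative Reg3b was at 7.88 against 8.87, 8.82 and 9.04, and the mucosal scavenger protein Dmbt1 at 3.81 against 5.28, 5.60 and 5.28. Without control rat 1 the median of the list was 0.16, without compost rat 2 0.11 and without control rat 2 0.51.

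Genes of Paneth cell fate and secretion had a median log2 difference of 0.06 over 19 tested, 12 of them higher and 7 lower, and 0 called at either threshold. Sox9 was at -4.38 and -4.11 in the control rats and -4.17 and -4.28 in the compost rats, a difference of 0.02 ± 0.20 (SE) that was -0.072 after normexp background correction. Kcnn4, the potassium channel through which Paneth cells secrete in response to calcium, was at 4.51 and 4.64 against 4.32 and 4.50, a difference of -0.16 ± 0.19 (SE), or -0.072 without compost rat 1. Of the genes named by rule, Kcnn4 lay nearest to Defcr4, at 0.03 log2 units. Defcr4 spanned only 0.24 log2 units over the rats, less than the 1 log2 unit set for likeness. Any steady probe lies near such a profile, as did Mylk and Fabp1 at 0.10, and nothing is drawn from it. Ephb2, which positions cells along the crypt, differed by 0.35 ± 0.28 (SE), and by 0.023 without compost rat 1. Nod2, the sensor of muramyl dipeptide, was well above background in 1 rat of each group.

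Other secreted antimicrobial genes were higher in the compost mean for 11 of 13, beside 46.2% of all probes. Their median was 0.40, and 0 passed the adjusted threshold. The median was 0.12 without control rat 1 and 0.65 without control rat 2. An unadjusted p under 0.05 was reached by 2 of these 13 genes, beside 3.21% of all probes. Slpi, an inhibitor of serine proteases secreted at mucosal surfaces, was at 4.77 and 5.01 in the control rats and 5.89 and 5.70 in the compost rats, a difference of 0.91 ± 0.20 (SE; unadjusted p = 0.00735, limma adjusted p = 1.00). Ccl28, a mucosal chemokine, was at 2.35 and 2.50 against 3.11 and 3.67, a difference of 0.96 ± 0.26 (SE; unadjusted p = 0.0154, limma adjusted p = 1.00). For both, the groups did not overlap, as for 27.9% of all probes in one direction or the other.

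The 8 neutrophil markers tested had a summed linear level of 1.22 and 1.30 in the control rats and 1.56 and 1.60 in the compost rats; 5 were higher and 3 lower, with a median of 0.61, and 0 were called at either threshold. Camp, the cathelicidin precursor, differed by -0.56 ± 0.25 (SE) and Padi4, which citrullinates histones, by 0.60 ± 0.29 (SE). Camp was at -0.27 without compost rat 1, and Padi4 at 0.25 without compost rat 2. S100a9, a calgranulin, was at -4.59 in control rat 1 and -2.66, -2.89 and -2.50 in the others, and its partner S100a8 was well above background in 1 rat of each group. Without control rat 1 the median of the 8 was -0.082.

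Lists for the surrounding tissue differed in their medians. The epithelial list had a median of -0.02 over 12 genes, 4 higher and 8 lower. Within it Vil1, the microvillus protein villin, differed by -0.27 ± 0.21, Fabp2, the intestinal fatty acid binding protein, by -0.25 ± 0.24 and Si, sucrase-isomaltase, by -1.07 ± 0.47 (SE). Without compost rat 1 these were -0.13, 0.012 and -0.48. The list of the proximal small intestine had a median of -0.59 over 12 genes, 9 of them lower. Of the 12, 2 had an unadjusted p under 0.05, beside 3.21% of all probes. Apoa4, an apolipoprotein of chylomicrons, was at 9.07 and 8.07 in the control rats and 6.78 and 7.14 in the compost rats, a difference of -1.60 ± 0.39 (SE; limma adjusted p = 1.00). Lct, lactase, was, by its tested probe, well above background in both control rats and in neither compost rat. This probe was dim, at -2.99 and -4.20 in the control rats and -5.89 and -6.64 in the compost rats. Its difference was -2.66, and from -2.68 to -0.78 over the alternative settings that kept all rats. A second probe of Lct was not well above background on any array. The summed linear level of the list was 1123 and 855 in the control rats and 577 and 719 in the compost rats. Apoa4 and Fabp1, its brightest probes, made up most of this sum. Without control rat 1 the median of the list was -0.12, and without compost rat 1 it was -0.11. The list of the distal small intestine had a median of 0.05 over 13 genes, with sums of 1315 and 1315 against 1047 and 1400, and smooth muscle one of 0.12 over 6. Nr0b2, a bile acid-responsive repressor of the distal list, differed by -0.68 ± 0.31 (SE), and by -0.32 without control rat 2. The part of the proximal genes in the members' differences was not tested.

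**Figure D4:**
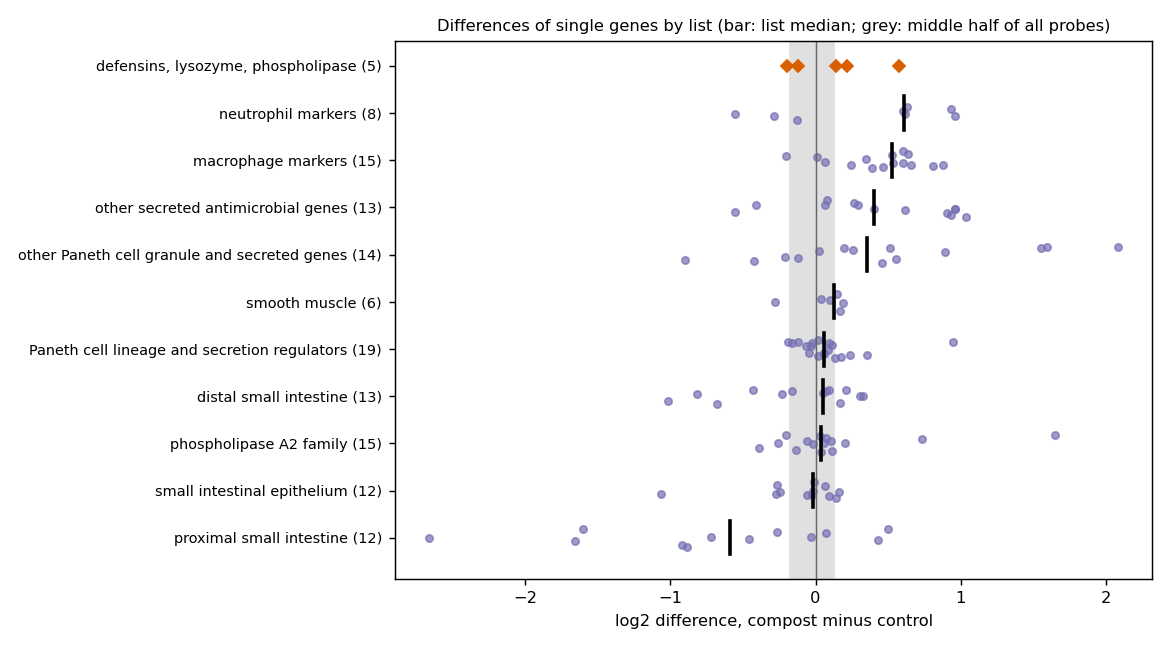
Log2 difference between compost and control rats (horizontal axis) for single genes of each list, with the number tested in brackets; vertical bars are list medians, diamonds the 5 member probes, and the grey band the 25th to 75th percentile of all probes. List medians run from -0.59 for the proximal small intestine to 0.61 for neutrophil markers, and the 5 members lie between -0.20 and 0.57.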

How the data were processed

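The deposited scanner files hold 1 intensity per spot on a linear scale, which Agilent Feature Extraction 9.1.3.1 had background-subtracted and detrended, per the file headers and the submitters' processing notes. The authors' deposited value table holds the same intensity to within 0.497%, with medians of 80.2, 79.4, 102 and 73.9. Spots flagged as outliers were left out (31 probes lost), log2 was taken, each array's 75th percentile over gene probes was subtracted, and spots of a probe were averaged. The deposited files do not hold these log2 values. Probes well above background on at least 2 arrays were tested with limma 3.58.1 in R 4.3.3, as a two-sided test, and p-values were adjusted over the 28415 by Benjamini-Hochberg; the script was tested on simulated data. The labels give replicate numbers and no pairing of the rats. In limma the variance of each probe is moderated by that of all probes tested. The SE, intervals and p-values thus do not rest on the spread of that probe between these 4 rats alone.

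The members and gene lists were chosen with earlier results of these data known. Named were every member probe, the 2 tested genes of each list with the smallest unadjusted p, a set of markers fixed with the lists, and the 3 probes most like a member spanning at least 1 log2 unit over the arrays. Lists take 1 probe per gene, the brightest kept one. Names were updated through the RefSeq GRCr8 table by accession or gene ID for 11922 probes, by symbol for 5196 and by synonym for 3488; 20406 kept the file's name. Promoters were aligned with Biopython 1.88. Alternatives changed the background correction, scaling, filter, variance estimate, value source and replicate block, and left out each rat.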

Additional observations from a re-analysis of the deposited data

How the results depend on the processing

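Over 13 alternative settings the 5 members kept their direction in 60 of 65 values, and none passed the adjusted threshold (lowest limma adjusted p 0.629). The 5 exceptions left out a rat: without control rat 1, RatNP-3b was at -0.14, Np4 at -0.11 and Pla2g2a at -0.068, and Lyz was at 0.074 without control rat 2 and 0.011 without compost rat 2. The ranges over leaving out each rat were -0.19 to -0.06 for Defcr4, -0.14 to 0.42 for RatNP-3b, -0.11 to 0.55 for Np4, -0.47 to 0.074 for Lyz and -0.068 to 1.21 for Pla2g2a. Over the other 9 settings they were -0.14 to -0.02, 0.11 to 0.20, 0.19 to 0.26, -0.22 to -0.16 and 0.56 to 0.61 in that order. The count of higher probes was 0 except for 1 with normexp background correction, and 0 to 2 on leaving out each rat; no lower probe was called. With the replicate number as a block, 0 probes were called and 901 had an unadjusted p under 0.05. Deviations of same-numbered rats correlated at r = -0.04 across probes. With 2 rats in each group this cannot show whether the numbers pair the rats.

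With normexp the median was 0.41 for macrophage, 0.27 for neutrophil and 0.17 for other Paneth granule genes, and the latter was 0.23 among probes well above background on all arrays. Leaving out each rat gave medians of 0.12 to 0.96 for macrophage, -0.082 to 0.44 for neutrophil, 0.11 to 0.51 for other Paneth granule, 0.12 to 0.65 for other antimicrobial, -1.15 to -0.11 for proximal and -0.23 to 0.12 for epithelial genes. Of the named genes, 12 changed sign when 1 rat was left out, with ranges of -0.60 to 2.49 for Nod2, -0.11 to 0.15 for Sox9, -0.27 to 0.12 for Defa6, -0.29 to 1.42 for Spaca3, -0.15 to 1.46 for Csf1r, -0.12 to 1.18 for Cd68, -0.30 to 1.22 for Adgre1, -0.031 to 1.90 for S100a9, -1.63 to 3.55 for S100a8, -1.97 to 0.17 for Itln1, -0.061 to 0.97 for Mmp7 and -0.50 to 0.012 for Fabp2. Defa6 was at 0.10 with quantile scaling and Sox9 at -0.072 with normexp. Where 1 rat was left in a group, it was assumed to vary like the others. The cause of these changes was not tested.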
